A study of Mus musculus with 12 samples.

Results

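Macrophages and dendritic cells are the resident phagocytes of the intestinal wall, and 31 genes by which they are commonly recognised in mice were examined. A gene was taken as measured where a probe set of the array, a group of probes summarised to 1 value, is annotated to that gene alone. By this rule 30 of the 31 genes were measured, on 31 of the 23991 probe sets, against 21408 genes in all. Cd209a had 2 probe sets, of which the brighter stands for the gene, and Clec9a is not analysed here.

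All 12 arrays carried RNA from the small intestine of wild-type BALB/c mice on day 14 after total body irradiation and an allogeneic graft of C57BL/6N bone marrow with T cells, which models acute graft-versus-host disease. The 6 TUDCA arrays came from recipients injected daily into the peritoneum with 200 mg/kg tauroursodeoxycholic acid, a taurine-conjugated bile acid. The 6 vehicle arrays came from recipients transplanted in the same way and injected with 200 µl of vehicle. Every recipient therefore carried a transplant, no untransplanted intestine was analysed here, and the arrays do not separate cells of donor and host. The description field speaks of CXCL12-abundant reticular cells, while the other fields name small intestine, and the epithelial genes Vil1, Epcam and Muc2 had mean log2 values of 12.17, 12.08 and 12.95. Sample numbers fell into a low range (2 TUDCA and 4 vehicle arrays) and a high range (4 TUDCA and 2 vehicle arrays), whose meaning is not stated. Each difference was therefore estimated within the ranges.

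Intestinal macrophages are replenished from blood monocytes, depend on signalling through the colony-stimulating factor 1 receptor, and take up bacteria and dying cells. Conventional dendritic cells develop under Flt3 ligand, carry antigen to lymph nodes and prime T cells, and plasmacytoid dendritic cells are specialised in type I interferon. In graft-versus-host disease these cells are known both as presenters of antigen to donor T cells and as a source of inflammatory mediators. The lineage is shaped by the transcription factor PU.1, encoded by Spi1, which binds purine-rich DNA with the core GAGGAA.

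Promoter windows, 250 bases before to 50 bases after a start site, were held for 24 of the 31 genes in the RefSeq table of build GRCm38.p6. The PU.1 core, read as GAGGAA or its reverse complement TTCCTC, was present in 15 of these 24 windows (62.5%) and in 28.3% of 27025 promoter windows of the same length. An interferon-stimulated response element, read as GAAA, any 2 bases and GAAA again on either strand, was present in 3 of 24 windows (12.5%) against 3.49% of all windows. A gamma-activated site, TTCNNNGAA, was also present in 3 of 24 windows, against 8.47% of all. In 9 windows none of these letters occurred. The first 4 windows below belong to the lysosome and oxidase genes, the group whose differences lay farthest below 0, and the other 2 to Lgals3, the gene with the highest difference, and Itgam, with 3 PU.1 cores. Each reads 5′ to 3′ in the direction of transcription, and capitals mark the motifs: in Ctss 2 PU.1 cores and 1 interferon-stimulated response element, in Cybb 1 PU.1 core and 3 such elements, in Laptm5 1 PU.1 core, and none in Lyz2 and Lgals3. The starts used for Cybb and Laptm5 lie inside the annotated spans of the genes (chromosome X, 9435252 to 9487766, and chromosome 4, 130912890 to 130936148). The motifs do not overlap in these windows, and a match is a run of letters, not a measured binding site.
Ctss, chr3:95526536-95526835, plus strand: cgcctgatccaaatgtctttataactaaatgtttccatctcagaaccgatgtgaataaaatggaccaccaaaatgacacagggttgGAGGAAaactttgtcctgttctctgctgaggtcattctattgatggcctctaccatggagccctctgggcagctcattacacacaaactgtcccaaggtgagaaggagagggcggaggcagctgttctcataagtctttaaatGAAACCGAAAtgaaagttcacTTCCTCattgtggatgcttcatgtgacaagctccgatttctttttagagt
Cybb, chrX:9469275-9469574, minus strand: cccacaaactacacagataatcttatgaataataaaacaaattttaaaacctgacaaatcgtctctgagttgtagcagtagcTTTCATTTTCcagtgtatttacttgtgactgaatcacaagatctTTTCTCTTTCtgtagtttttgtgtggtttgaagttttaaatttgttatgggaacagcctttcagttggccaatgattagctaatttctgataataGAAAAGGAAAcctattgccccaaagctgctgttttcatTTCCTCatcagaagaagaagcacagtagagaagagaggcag
Laptm5, chr4:130913066-130913365, plus strand: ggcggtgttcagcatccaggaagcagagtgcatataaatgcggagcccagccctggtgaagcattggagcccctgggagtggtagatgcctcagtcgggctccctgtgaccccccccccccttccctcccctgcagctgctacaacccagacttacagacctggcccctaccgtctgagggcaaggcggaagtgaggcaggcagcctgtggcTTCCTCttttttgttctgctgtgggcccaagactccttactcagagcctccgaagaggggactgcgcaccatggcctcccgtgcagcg
Lyz2, chr10:117282223-117282522, minus strand: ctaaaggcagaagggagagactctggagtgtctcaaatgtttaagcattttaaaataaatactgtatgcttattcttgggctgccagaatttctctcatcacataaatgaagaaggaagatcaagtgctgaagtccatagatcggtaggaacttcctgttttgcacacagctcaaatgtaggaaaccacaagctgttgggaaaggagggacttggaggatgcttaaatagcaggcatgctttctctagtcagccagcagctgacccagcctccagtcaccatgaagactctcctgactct
Lgals3, chr14:47373610-47373909, plus strand: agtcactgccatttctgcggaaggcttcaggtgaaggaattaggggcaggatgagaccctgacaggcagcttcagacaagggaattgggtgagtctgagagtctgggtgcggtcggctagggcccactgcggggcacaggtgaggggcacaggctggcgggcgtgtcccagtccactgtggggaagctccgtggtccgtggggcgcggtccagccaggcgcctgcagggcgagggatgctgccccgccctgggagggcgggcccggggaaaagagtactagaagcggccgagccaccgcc
Itgam, chr7:128062390-128062689, plus strand: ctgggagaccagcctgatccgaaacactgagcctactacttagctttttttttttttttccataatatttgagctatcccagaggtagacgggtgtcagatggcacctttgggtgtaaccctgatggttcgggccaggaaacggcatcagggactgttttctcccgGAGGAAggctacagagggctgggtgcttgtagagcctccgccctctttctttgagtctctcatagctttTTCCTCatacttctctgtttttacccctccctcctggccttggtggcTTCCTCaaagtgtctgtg

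With TUDCA, 1 of the 30 genes fell, Ctss, and none rose after adjustment over all probe sets in limma. Of all probe sets 1.52% were called lower and 1.00% higher at this threshold, an adjusted p of 0.05. Most of the genes lay below 0 without passing the test: 25 of 30 had a negative log2 difference (TUDCA minus vehicle), as had 46.7% of all probe sets, and their median was −0.14, against 0.01 over all probe sets. At an unadjusted p of 0.05, 5 genes were lower (Ctss, Lyz2, Laptm5, Csf1r and Cybb) and 2 higher (Lgals3 and Cd14), beside 6.84% and 7.24% of all probe sets. For no gene were all 6 TUDCA values below or above all 6 vehicle values, a separation seen in 1.18% of all probe sets with TUDCA lower and in 0.800% with TUDCA higher. Since whole tissue was measured, fewer macrophages and less RNA of a gene per macrophage cannot be told apart.

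These counts depended on single arrays. Without TUDCA replicate 2, 19 of 30 genes lay below 0, with a median difference of −0.04, whereas over the other 11 single omissions 23 to 28 lay below 0, with medians from −0.20 to −0.10. The count lower at an unadjusted p of 0.05 was 1 without TUDCA replicate 2, 3 without TUDCA replicate 6, vehicle replicate 4 or vehicle replicate 6, 8 without TUDCA replicate 5 and 9 without TUDCA replicate 1. With TUDCA replicates 2 and 6 both left out, a choice made after the data were seen, 14 of 30 genes lay below 0. Of the 30, 1 was lower at an unadjusted p of 0.05 in limma, none passed the adjusted threshold, and the median difference was 0.0041. These arrays were picked as the lowest TUDCA arrays in these same genes, and no vehicle arrays were left out to match. The differences were therefore bound to move upward, and this omission tests nothing. The 95% intervals, which reflect the spread between these arrays and may be partly technical, were wide relative to the differences.

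**Figure D1:**
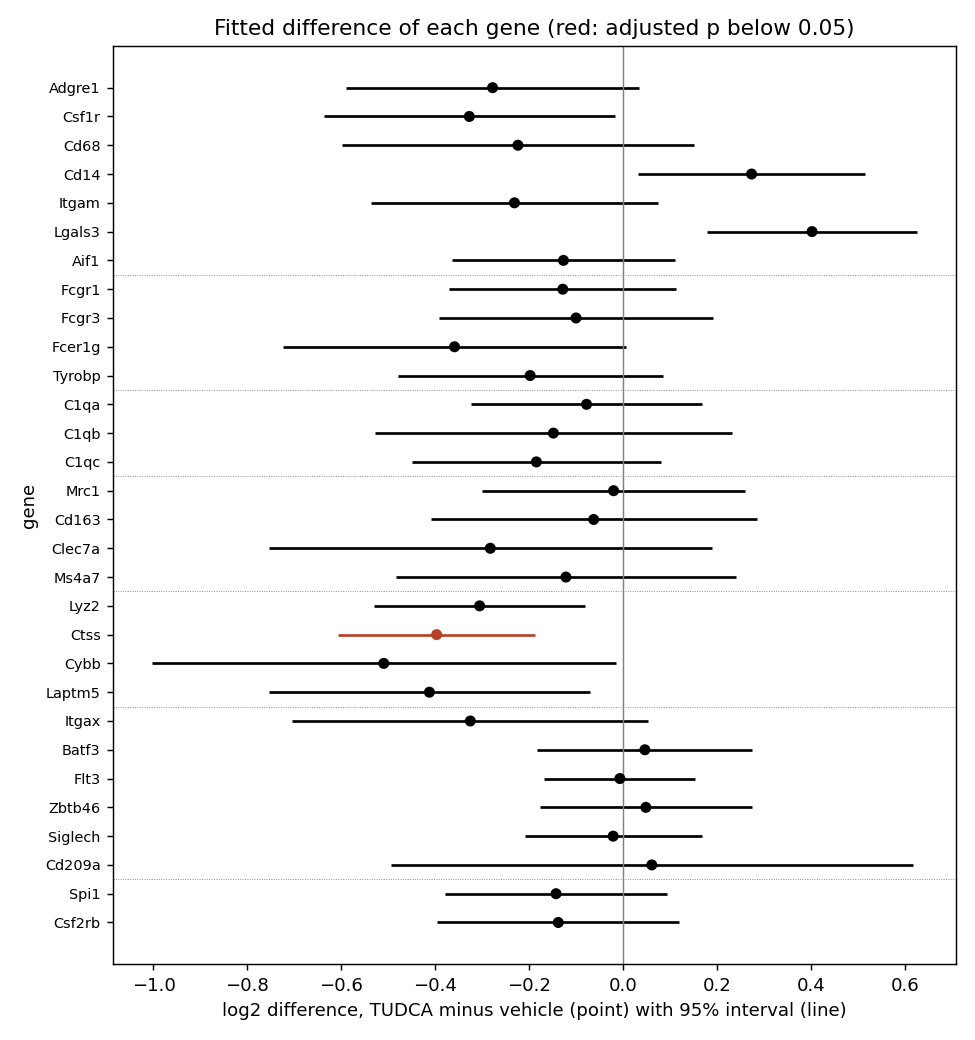
Log2 difference (TUDCA minus vehicle, horizontal axis) of each of 30 macrophage and dendritic cell genes with its 95% interval, in order of role from surface proteins of macrophages at the top to regulators at the bottom, with dotted lines between roles. Ctss, in red, has an adjusted p of 0.0462; Lgals3 and Cd14 lie on the right, and most other points lie left of 0 with intervals that reach across it.

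The lysosome and oxidase genes lay lowest of the 7 role groups, with a median difference of −0.41, and all 4 were at an unadjusted p below 0.05. Ctss, on chromosome 3 at 95526786 to 95556405 in GRCm38.p6, encodes cathepsin S, the lysosomal protease that trims the invariant chain of MHC class II. Its log2 values ran from 10.39 to 11.05 on the TUDCA arrays (median 10.89) and from 10.96 to 11.29 on the vehicle arrays (median 11.19). The groups overlapped narrowly, and all 6 TUDCA values lay below the vehicle mean of their own number range. Ctss fell by 0.40 ± 0.10 on the log2 scale (SE, 95% interval −0.61 to −0.19, limma adjusted p = 0.0462), a change of −24.1%. This call depended on single arrays: it was lost without any of TUDCA replicates 1, 2, 4 and 6 or vehicle replicates 1, 2, 3, 4 and 6. It was kept without TUDCA replicate 3, TUDCA replicate 5 or vehicle replicate 5. The adjusted p over the 12 omissions ran from 0.00625 to 0.178, the highest without TUDCA replicate 2, where the difference was −0.28.

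Lyz2 encodes the lysozyme of macrophages and neutrophils, which cleaves bacterial cell walls. Its values were 10.56 to 11.18 with TUDCA (median 11.07) and 11.13 to 11.36 with vehicle (median 11.26). Again every TUDCA value lay below the vehicle mean of its range, but the difference of −0.31 ± 0.11 (SE, 95% interval −0.53 to −0.08) did not pass (adjusted p = 0.176). Lyz1, the neighbouring lysozyme gene expressed in Paneth cells, has a closely similar sequence, so that its RNA may reach Lyz2 probes. Its own difference was −0.12 (95% interval −0.70 to 0.46, adjusted p = 0.898).

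Laptm5, a lysosomal membrane protein of blood cells, spanned 6.06 to 6.85 under TUDCA (median 6.81) and 6.58 to 7.20 under vehicle (median 7.03). All 6 TUDCA values lay below the vehicle mean of their range. The Laptm5 difference of −0.41 ± 0.16 (SE, 95% interval −0.76 to −0.07, limma adjusted p = 0.242) was nearly equal in the low and high ranges (−0.40 and −0.43). The low range held only 2 TUDCA values, 6.82 and 6.18 (replicate 2), and the high range only 2 vehicle values, 7.10 and 7.04. The lowest TUDCA value of the high range was 6.06, on replicate 6. Cybb encodes the catalytic subunit of the phagocyte NADPH oxidase, which makes superoxide in the phagosome. It spanned 7.57 to 8.86 under TUDCA (median 8.56) and 8.45 to 9.35 under vehicle (median 8.70). The Cybb difference of −0.51 was the lowest of the 30, but its interval was also the widest of these 4 genes (−1.0 to −0.02, adjusted p = 0.337), and 4 of 6 TUDCA values lay below the vehicle mean of their range.

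**Figure D2:**
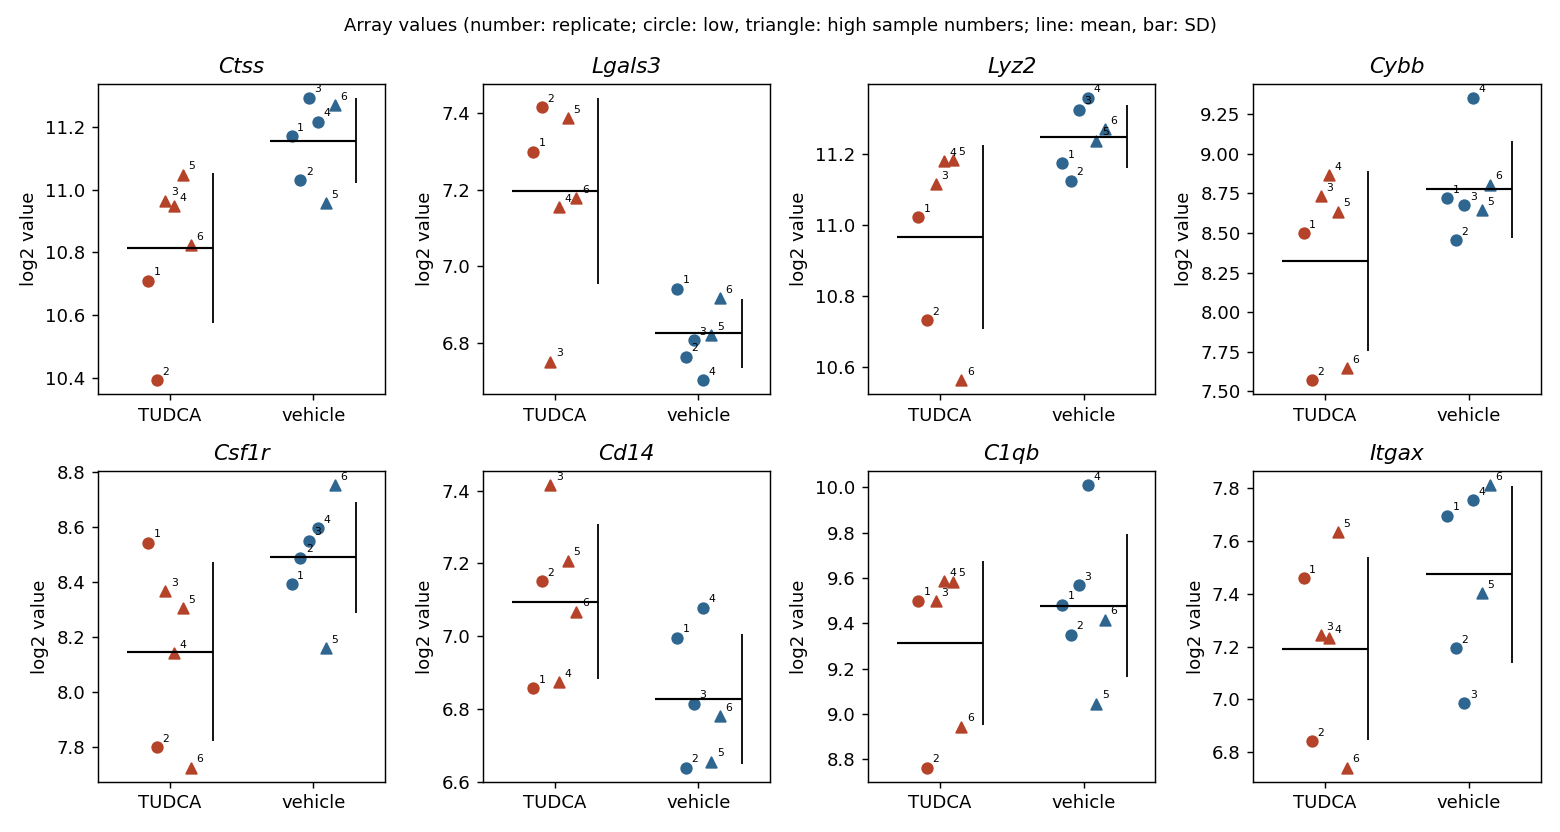
Log2 values (vertical axis) of Ctss, Lgals3, Lyz2, Cybb, Csf1r, Cd14, C1qb and Itgax on 6 TUDCA arrays (left) and 6 vehicle arrays (right), with the replicate number beside each point, circles and triangles for the low and high ranges of sample numbers, a line at the mean and a bar of 1 SD. In Lyz2, Cybb, Csf1r, C1qb and Itgax, TUDCA replicates 2 and 6 lie below the other TUDCA arrays. Most TUDCA values of Lgals3 lie above the vehicle values.

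Among the 7 surface and cytoplasmic proteins by which macrophages are usually stained, 5 had negative and 2 positive differences, and none passed the adjusted test. Lgals3 encodes galectin-3, a lectin that binds beta-galactosides and is made by intestinal epithelium as well as macrophages. Its log2 values were 6.75 to 7.42 with TUDCA (median 7.24) and 6.70 to 6.94 with vehicle (median 6.81). The difference of 0.40 ± 0.10 (SE, 95% interval 0.18 to 0.63) corresponds to 32.1% and had an adjusted p of 0.0597, just outside the threshold. Without TUDCA replicate 3, the lowest of its group, the adjusted p was 0.00489, and over all 12 omissions it ran from 0.00489 to 0.212. Cd14, the co-receptor for bacterial lipopolysaccharide, had 6.86 to 7.42 with TUDCA (median 7.11) and 6.64 to 7.08 with vehicle (median 6.80). Its difference was 0.27 ± 0.11 (SE, 95% interval 0.03 to 0.51, adjusted p = 0.282), and 1 TUDCA value lay below the vehicle mean of its range, as for Lgals3.

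Csf1r, the receptor on which macrophage survival depends, had values of 7.73 to 8.54 under TUDCA (median 8.22) and of 8.16 to 8.75 under vehicle (median 8.52). The difference was −0.33 ± 0.14 (SE, 95% interval −0.64 to −0.02, adjusted p = 0.325), with −0.34 in the low and −0.32 in the high range. The low range held only 2 TUDCA values, 8.54 and 7.80, and the high range only 2 vehicle values, 8.16 and 8.75. Adgre1, the F4/80 antigen, had 6.63 to 7.20 under TUDCA (median 6.91) and 6.84 to 7.63 under vehicle (median 7.20). Its difference of −0.28 (95% interval −0.59 to 0.03, adjusted p = 0.42) was split between the ranges, with −0.59 in the low and 0.03 in the high range. Itgam, the integrin chain CD11b of myeloid cells, had 6.93 to 7.68 under TUDCA (median 7.47) and 7.31 to 7.94 under vehicle (median 7.58), a difference of −0.23 (95% interval −0.54 to 0.07, adjusted p = 0.516). Cd68, a glycoprotein of late endosomes, differed by −0.22 (95% interval −0.60 to 0.15) and Aif1, the calcium-binding protein Iba1, by −0.13 (95% interval −0.36 to 0.11). All 7 genes overlapped between the groups.

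The receptors for antibody and their signalling adaptors were all below 0, with a median of −0.16, and none had an unadjusted p under 0.05. Fcer1g encodes the gamma chain that carries the signal of several Fc receptors through an immunoreceptor tyrosine-based activation motif. Its log2 values ran from 7.96 to 8.70 with TUDCA (median 8.63) and from 8.33 to 9.25 with vehicle (median 8.79). All 6 TUDCA values lay below the vehicle mean of their range, and the difference was −0.36 ± 0.17 (SE, 95% interval −0.72 to 0.0048, adjusted p = 0.362). Tyrobp, the adaptor DAP12 of Trem2 and other receptors, had 6.63 to 7.18 with TUDCA (median 6.98) and 6.75 to 7.66 with vehicle (median 7.27), a difference of −0.20 (95% interval −0.48 to 0.08, adjusted p = 0.558). Fcgr1, the high-affinity receptor for IgG that marks intestinal macrophages, differed by −0.13 (95% interval −0.37 to 0.11). Fcgr3, a low-affinity activating receptor, differed by −0.10 (95% interval −0.39 to 0.19), and its inhibitory relative Fcgr2b, whose sequence is similar, by −0.14 (95% interval −0.46 to 0.18).

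C1qa, C1qb and C1qc encode the 3 chains of C1q, the recognition molecule of the classical complement pathway, which tissue macrophages secrete. C1qa had log2 values of 8.28 to 8.74 under TUDCA (median 8.62) and 8.48 to 9.0 under vehicle (median 8.54). C1qb had 8.76 to 9.59 under TUDCA (median 9.50) and 9.05 to 10.01 under vehicle (median 9.45), and C1qc 7.26 to 7.80 under TUDCA (median 7.64) and 7.46 to 8.05 under vehicle (median 7.76). In C1qa and C1qb the TUDCA median was thus the higher of the 2 medians, although the fitted differences were −0.08 (95% interval −0.32 to 0.17) and −0.15 (95% interval −0.53 to 0.23). The C1qc difference was −0.19 (95% interval −0.45 to 0.08), and the adjusted p was 0.56 or more for all 3 genes. In the high range alone C1qb stood at 0.17, against −0.47 in the low range.

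The scavenger and pattern receptors lay closer to 0, with a median of −0.09. Clec7a, the beta-glucan receptor dectin-1, differed by −0.28 with a wide interval (−0.75 to 0.19), with −0.56 in the high range and −0.0028 in the low range. Ms4a7, a membrane protein of tissue macrophages, differed by −0.12 (95% interval −0.48 to 0.24). Mrc1, the mannose receptor, differed by −0.02 (95% interval −0.30 to 0.26), and Cd163, which clears haemoglobin bound to haptoglobin, by −0.06 (95% interval −0.41 to 0.28). The adjusted p was 0.633 or more for these 4 genes.

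None of the 6 measured dendritic cell genes had an unadjusted p under 0.05, and their median difference was 0.02, against −0.17 for the other 24 genes. The difference between these medians was not tested. Itgax, the integrin chain CD11c of dendritic cells and many intestinal macrophages, had log2 values of 6.74 to 7.63 with TUDCA (median 7.24) and 6.99 to 7.81 with vehicle (median 7.55). Its difference of −0.33 (95% interval −0.70 to 0.05, adjusted p = 0.446) stood apart from the other dendritic cell genes, which lay between −0.02 and 0.06. Flt3, the receptor through which dendritic cells develop, had 5.27 to 5.52 with TUDCA (median 5.35) and 5.28 to 5.51 with vehicle (median 5.45), a difference of −0.0075 (95% interval −0.17 to 0.15, adjusted p = 0.981). The transcription factors Zbtb46 of conventional and Batf3 of cross-presenting dendritic cells differed by 0.05 (95% interval −0.18 to 0.27) and 0.05 (95% interval −0.18 to 0.27). Siglech, a lectin of plasmacytoid dendritic cells, differed by −0.02 (95% interval −0.21 to 0.17). Flt3, Zbtb46, Batf3, Siglech and Cd163 had means below that of the median probe set, where RMA values compress differences.

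Cd209a, a C-type lectin of monocyte-derived dendritic cells, was measured by a pair of probe sets that differed in sign. The brighter spread widely in both groups, from 8.17 to 9.36 under TUDCA and from 7.76 to 9.05 under vehicle, with a difference of 0.06 (95% interval −0.50 to 0.62). The dimmer gave −0.01 (95% interval −0.28 to 0.26). Its mean over all arrays was 4.45, below that of the median probe set, against 8.64 for the brighter. Related genes such as Cd209b share sequence with Cd209a, so the value may not be specific. The probe sets of Cd209b, Cd209c, Cd209d and Cd209e themselves had means of 4.84, 4.20, 4.05 and 3.43. Whether their RNA reaches the brighter Cd209a probe set was not tested.

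Spi1 and Csf2rb complete the set. Spi1, encoding PU.1, had log2 values of 6.45 to 7.09 under TUDCA (median 6.86) and 6.81 to 7.12 under vehicle (median 6.91), and its difference was −0.14 (95% interval −0.38 to 0.09, adjusted p = 0.63). Csf2rb, the beta chain shared by the receptors for GM-CSF, IL-3 and IL-5, differed by −0.14 (95% interval −0.40 to 0.12), and Csf2rb2, its near copy in the mouse, by −0.10 (95% interval −0.42 to 0.22).

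**Figure D3:**
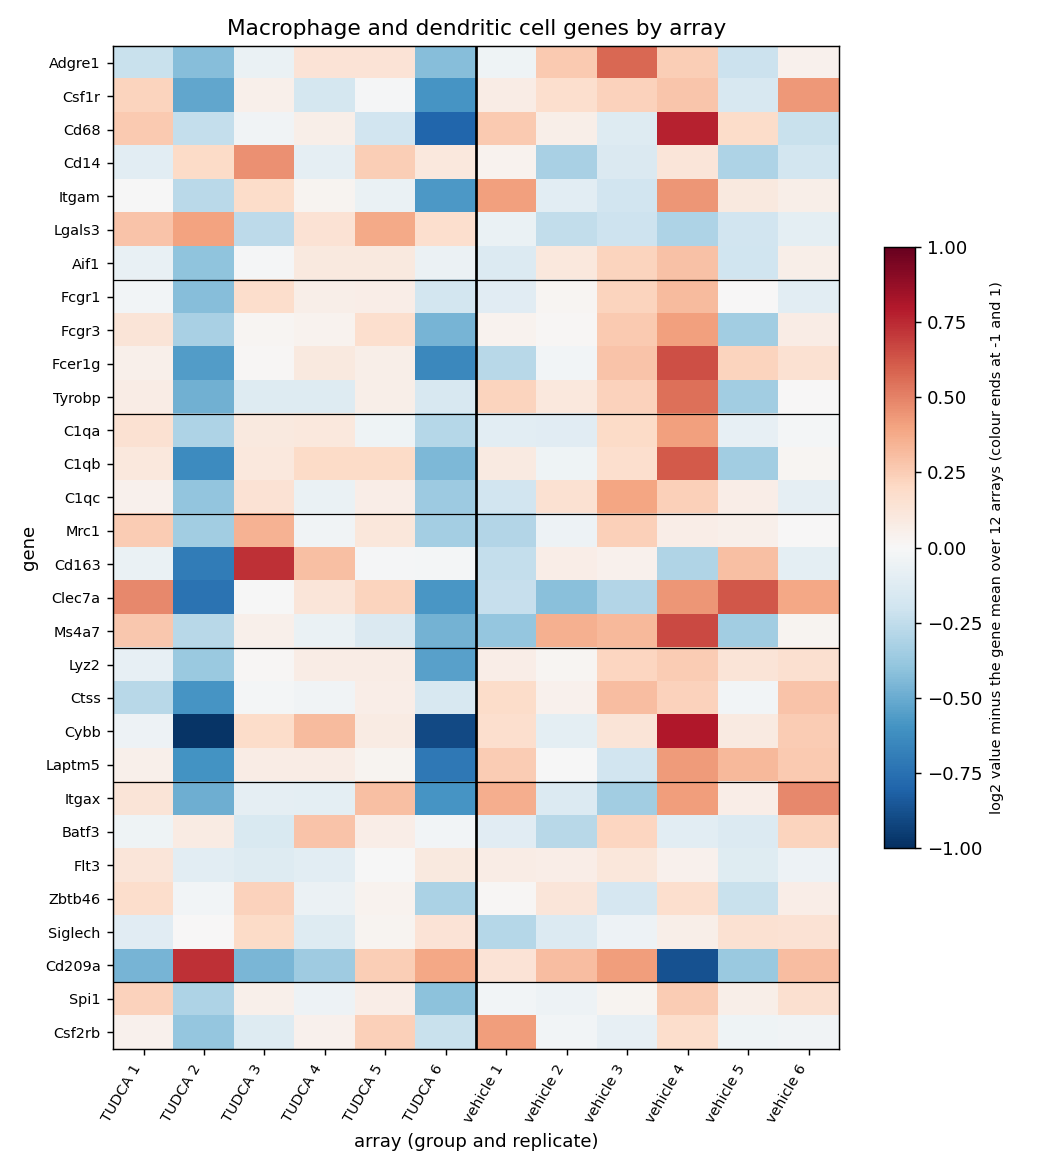
Log2 value minus the mean of the gene over 12 arrays (colour, red higher and blue lower, saturated beyond 1) for 30 genes in rows and 6 TUDCA (left) and 6 vehicle arrays (right) in columns. The columns of TUDCA replicates 2 and 6 are mostly blue, and that of vehicle replicate 4 is mostly red.

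The low values were gathered on the same arrays. Of the 30 genes, 13 had their lowest TUDCA value on replicate 2 and 11 on replicate 6, and for 20 genes these arrays held the 2 lowest TUDCA values. Averaged over the 30 genes after subtraction of each gene's mean, replicates 2 and 6 stood at −0.32 and −0.31, and the other 4 TUDCA arrays between 0.03 and 0.08. On the vehicle arrays the same average ran from −0.04 to 0.26, and replicate 4 held the highest vehicle value of 16 genes. The other 4 TUDCA arrays thus lay within the range of the vehicle arrays.

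Markers of T and NK cells and of B and plasma cells also moved on some of these arrays. Those of neutrophils and mast cells were not low on TUDCA replicates 2 and 6. The centred average of 15 measured T and NK cell markers out of 18 ran from −1.04 to 0.16 on the TUDCA arrays and from −0.04 to 0.62 on the vehicle arrays. It was −1.04 on TUDCA replicate 2, −0.24 on TUDCA replicate 6 and 0.62 on vehicle replicate 4. It also stood at −0.32 on TUDCA replicate 1 and 0.47 on vehicle replicate 5, where the average of the 30 genes was 0.05 and −0.04. Of these markers 6 were lower and none higher after adjustment, among them Cd3e, of the T cell receptor complex (−0.93, adjusted p = 0.0137), and Cd8a, of cytotoxic T cells (−1.03, adjusted p = 0.0187). Ptprc, the pan-leukocyte antigen CD45, differed by −0.57 (95% interval −0.89 to −0.25, adjusted p = 0.0642) and lay below the vehicle mean of its range on all 6 TUDCA arrays. A list of 12 stromal and endothelial genes stood at −0.11 on TUDCA replicate 2 and −0.41 on replicate 6, and 13 epithelial genes at 0.05 and −0.08. A list of 7 B and plasma cell genes stood at −0.26 on TUDCA replicate 2 and −0.25 on replicate 6, its 2 lowest arrays of the 12. On TUDCA replicates 2 and 6 the 10 neutrophil genes stood at 0.04 and 0.07, and the 9 mast cell genes at 0.02 and 0.69. Among the 13 epithelial genes Krt8, a keratin of simple epithelium, was called higher (0.28, adjusted p = 0.0169), and at an unadjusted p of 0.05 4 were higher and 3 lower. Among 10 neutrophil genes Ly6g alone was called, and it was higher (1.26, adjusted p = 0.0211), while no call was made among 7 B and plasma cell, 9 mast cell and 7 reticular cell genes. The part of cell composition, and of these arrays, in the differences of the 30 genes was not tested beyond leaving the arrays out.

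The 2 ranges of sample numbers gave different pictures. In the low range 24 of 30 genes lay below 0, with a median of −0.28, whereas in the high range 15 did, with a median of −0.0032. Over all probe sets the medians were 0.0090 and 0.01. The genes below 0 in both ranges numbered 13, among them all 4 lysosome and oxidase genes, Csf1r, Fcer1g, Itgax, Itgam and Spi1, and 4 lay above 0 in both. A difference between the ranges was tested as an interaction in limma: no member passed (smallest adjusted p = 0.566), and of all probe sets 0% did. With 2 arrays in the smaller group of each range, this test had little to draw on, and it does not show that the ranges were alike.

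**Figure D4:**
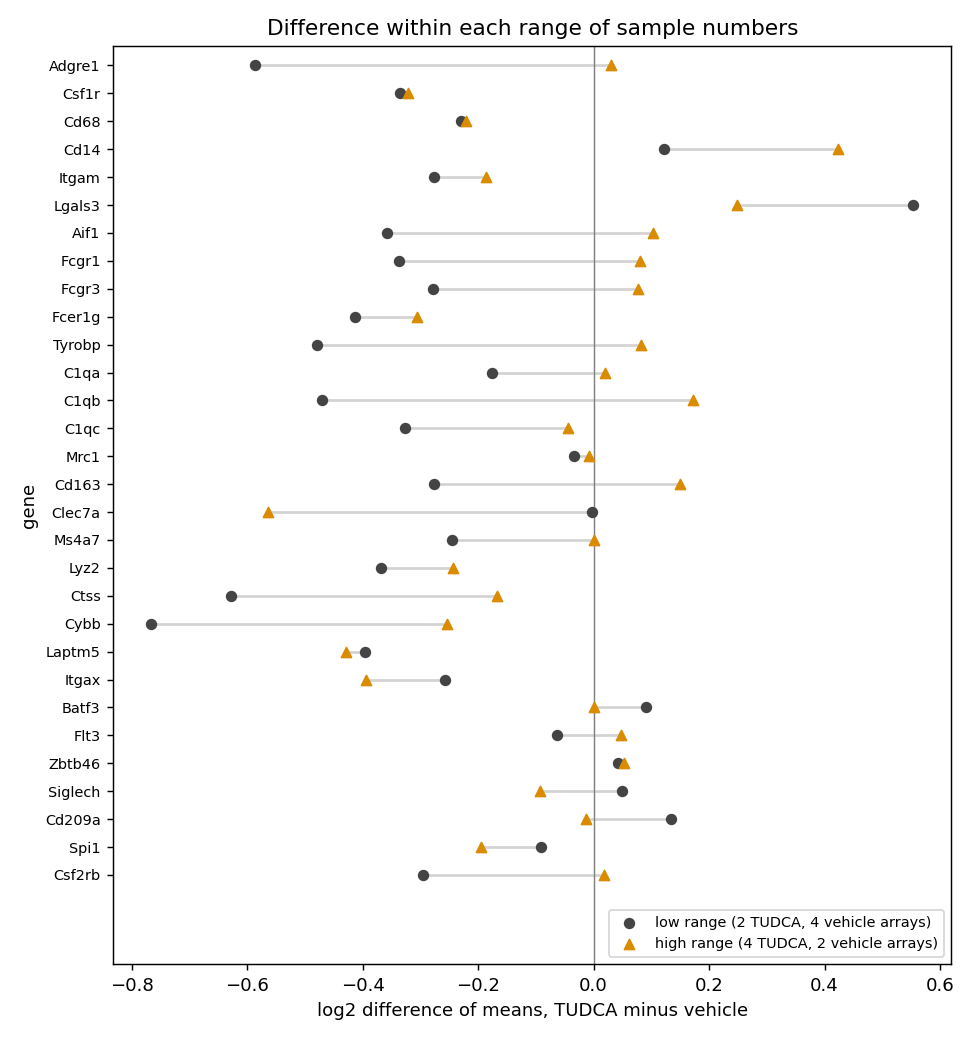
Log2 difference of group means (TUDCA minus vehicle, horizontal axis) of each of 30 genes within the low range of sample numbers (circles, 2 TUDCA and 4 vehicle arrays) and the high range (triangles, 4 TUDCA and 2 vehicle arrays). Csf1r, Laptm5 and Cd68 differ little between the ranges, whereas Adgre1, Tyrobp, C1qb and Aif1 lie below 0 in the low range and above it in the high range.

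Pairs of genes with related products or functions were compared over the 12 arrays. No unrelated pair was set beside them. TUDCA replicates 2 and 6 held the 2 lowest TUDCA values of 20 of the 30 genes. The r values therefore do not show that a pair varied together more than other members did. C1qa and C1qb, which lie in a cluster on chromosome 4, varied together with r = 0.891 (permutation p = 0.00014, adjusted over 8 pairs 0.00112) and rho = 0.853 (adjusted p = 0.00592). The r was 0.918 and 0.83 within the low and high ranges and 0.752 without the 2 arrays farthest from the median of C1qa. C1qa and C1qc gave r = 0.779 (adjusted permutation p = 0.00461) and 0.699 without the same 2 arrays. For C1qb and C1qc r = 0.693 (adjusted permutation p = 0.0165) dropped to 0.282 without the 2 arrays farthest from the median of C1qb, and thus rested on them. In each pair the farthest arrays were taken by the gene named first, so they were not the same arrays for every pair. Fcgr3 and its signalling chain Fcer1g gave r = 0.757 (adjusted permutation p = 0.00821) and 0.929 without the farthest 2. Within the groups their r was 0.97 over TUDCA arrays and 0.477 over vehicle arrays, and within the low and high ranges it was 0.961 and 0.589.

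The integrin chains Itgam and Itgax, which both pair with CD18, gave r = 0.803 (adjusted permutation p = 0.00292), with 0.957 in the low range, 0.669 in the high range and 0.656 without the 2 farthest arrays. Csf1r and Spi1 gave r = 0.874 (adjusted permutation p = 0.00261). Within the groups r was 0.993 over TUDCA arrays and 0.465 over vehicle arrays, and 0.569 over the 10 arrays left without the 2 farthest. Cybb and Cyba, the 2 membrane subunits of the oxidase, gave r = 0.681 (adjusted permutation p = 0.0253) and 0.401 without the farthest 2, so that this relation rested partly on those arrays. Within the groups their r was 0.732 over TUDCA arrays and 0.201 over vehicle arrays. Cyba itself fell with TUDCA, so the pooled r includes a difference between the groups. For Ctss and Ciita, the master regulator of MHC class II genes, no pooled r is given because the groups separated in Ciita. Within the groups r was 0.937 over 6 TUDCA arrays (exact permutation p = 0.0167) and 0.245 over 6 vehicle arrays (exact permutation p = 0.747).

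Of 181 further genes of the myeloid system, in 10 lists, 170 were measured. In limma 13 of them fell and 1 rose after adjustment, against 1.52% and 1.00% of all probe sets, and their median difference was −0.13. The lists were growth factors and receptors, transcription factors, monocyte genes, resident and repair macrophage genes, dendritic cell genes, activation genes, Fc receptor and integrin signalling, oxidase and lysosome, pattern receptors, and bile acid sensors. Many of the genes that changed are also known from lymphocytes or epithelium, which whole-tissue RNA contains.

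Nos2, the inducible nitric oxide synthase of activated macrophages and inflamed epithelium, showed the largest fall of the 170. It had log2 values of 6.31 to 7.14 with TUDCA (median 6.46) and 7.21 to 9.37 with vehicle (median 7.78), so that the groups did not overlap. Nos2 fell by 1.56 ± 0.29 (SE, adjusted p = 0.0106), with −1.55 in the low and −1.58 in the high range. The high range held only 2 vehicle values, 9.37 and 7.21, and the latter lay close to the highest TUDCA value. The similar differences therefore do not show that the ranges were alike. Over the omissions of single arrays the Nos2 difference ran from −1.97 to −1.16 and the adjusted p from 0.00146 to 0.0453. Slamf7, a receptor of activated macrophages and natural killer cells, was the other activation gene called among 17 (−0.63 ± 0.15 SE, adjusted p = 0.0336), and this call was lost without TUDCA replicates 1, 2 or 6 or vehicle replicates 1, 3 or 6 (adjusted p up to 0.146).

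Mertk, the receptor tyrosine kinase with which macrophages bind dying cells, had 8.15 to 8.88 with TUDCA (median 8.44) and 8.93 to 9.20 with vehicle (median 9.07). All TUDCA values thus lay below all vehicle values, and Mertk fell by 0.67 ± 0.10 (SE, adjusted p = 0.00278), the only call among 24 resident and repair genes. The next in that list, the tetraspanin Cd9, was higher by 0.25 on the log2 scale but did not pass (adjusted p = 0.0765). Among 15 transcription factors 4 fell and 1 rose. Maf, the factor c-Maf of resident macrophages and T cells, had 9.38 to 9.74 with TUDCA (median 9.50) and 9.84 to 10.14 with vehicle (median 10.03), again without overlap, and fell by 0.51 ± 0.07 (SE, adjusted p = 0.00244).

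Ikzf1, the lymphoid and myeloid factor Ikaros, fell by 0.54 (adjusted p = 0.0202), Nfil3, needed for cross-presenting dendritic cells and innate lymphoid cells, by 0.49 (adjusted p = 0.0215), and Irf8, a determinant of monocytes and dendritic cells, by 0.49 (adjusted p = 0.0235). Bhlhe40, a repressor active in macrophages and T cells, rose by 0.54 ± 0.11 (SE, adjusted p = 0.0148). Each of these 4 calls was lost without TUDCA replicate 1 or 2, and those of Ikzf1 and Nfil3 also without vehicle replicate 6, with an adjusted p of at most 0.102. Their direction did not change in any of these omissions.

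Of 23 dendritic cell genes 3 fell and none rose after adjustment. The list was split in sign, with 13 genes below 0, 10 above and a median of −0.04. At an unadjusted p of 0.05 in limma, 5 were lower and 2 higher. Ly75, the endocytic receptor DEC-205 of cross-presenting dendritic cells, thymic epithelium and other epithelia, had 7.79 to 8.49 with TUDCA (median 8.34) and 8.73 to 9.09 with vehicle (median 8.88). The groups did not overlap, and Ly75 fell by 0.78 ± 0.10 (SE, adjusted p = 0.00156), the smallest adjusted p among the 170. Itgae, the integrin chain CD103 of intestinal dendritic cells and intraepithelial T cells, fell by 0.50 (adjusted p = 0.0339), and Tlr3, the receptor for double-stranded RNA, by 0.34 (adjusted p = 0.0498). The Itgae call was lost without any of 9 arrays (all but TUDCA replicate 3 and vehicle replicates 3 and 5) and the Tlr3 call without any of 10 (all but TUDCA replicates 5 and 6), with an adjusted p of up to 0.147 and 0.195.

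The oxidase and lysosome list, to which Ctss, Lyz2, Laptm5 and Cybb are related in function, held 3 falls among 19 measured genes. Lamp2, a lysosomal membrane protein of most cells, had 9.77 to 10.06 with TUDCA (median 9.94) and 10.07 to 10.33 with vehicle (median 10.17), and fell by 0.31 ± 0.06 (SE, adjusted p = 0.0109). Lgmn, the lysosomal protease legumain, had 8.99 to 9.34 with TUDCA (median 9.23) and 9.39 to 10.08 with vehicle (median 9.48), and fell by 0.43 ± 0.11 (SE, adjusted p = 0.0448). Neither gene overlapped between the groups. Cyba, the partner of Cybb in the membrane, fell by 0.31 ± 0.08 (SE, adjusted p = 0.0404). The Lamp2 call was lost without TUDCA replicate 2 (adjusted p = 0.0565). The Lgmn call was lost without any of 9 arrays (all but TUDCA replicates 1 and 3 and vehicle replicate 6) and the Cyba call without any of 8 (all but TUDCA replicates 3 and 4 and vehicle replicates 3 and 5), with an adjusted p of up to 0.159 and 0.168.

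**Figure D5:**
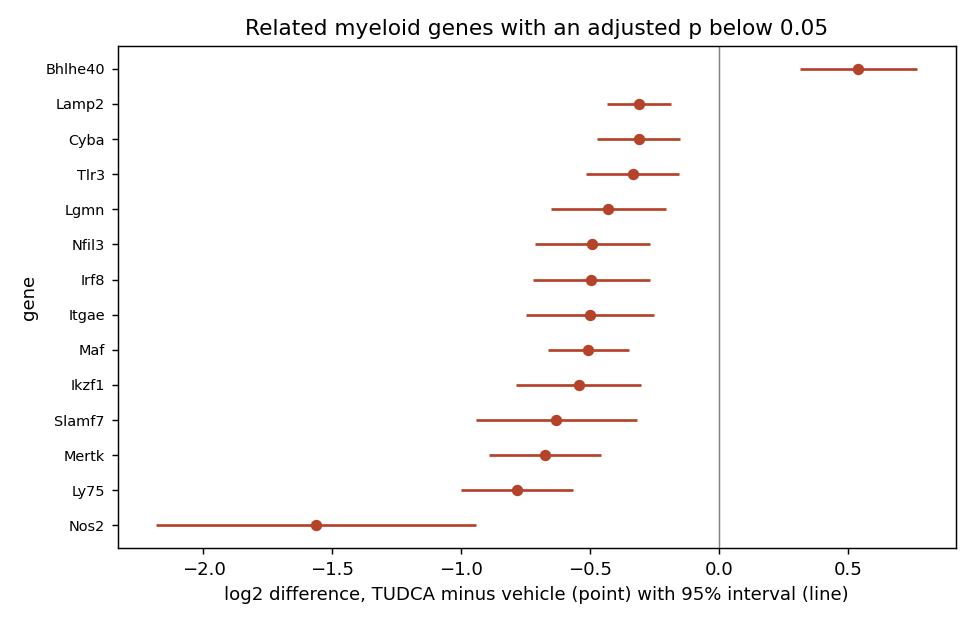
Log2 difference (TUDCA minus vehicle, horizontal axis) with its 95% interval for the 14 of 170 related myeloid genes that had an adjusted p below 0.05. Bhlhe40 is the single gene above 0, and Nos2 lies farthest below it.

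The other 5 lists held no call. Of 11 growth factor and receptor genes, Csf2ra, the alpha chain for GM-CSF (−0.13, 95% interval −0.32 to 0.05), and Csf1, the ligand of Csf1r (−0.18, 95% interval −0.45 to 0.09), had the smallest p. Of 20 monocyte genes they were Cx3cl1, the ligand of the fractalkine receptor (−0.26, adjusted p = 0.126), and the chemokine Ccl3 (−0.96, adjusted p = 0.138). Of 18 signalling genes they were the inhibitory receptors Pirb (−0.34, adjusted p = 0.149) and Cd300lf (−0.26, adjusted p = 0.176). Of 15 pattern receptor genes they were the adaptor Myd88 (−0.27, adjusted p = 0.187) and Mpeg1, a pore-forming protein of phagosomes (−0.41, adjusted p = 0.33).

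The bile acid sensors are listed because the injected compound is a bile acid. Of 8 measured, none was called, and the smallest p belonged to Nr1i2, the xenobiotic receptor PXR (−0.20, adjusted p = 0.166), and Vdr, the vitamin D receptor (−0.23, adjusted p = 0.329), both also expressed in epithelium. Gpbar1, the membrane receptor through which macrophages sense bile acids, had log2 values of 5.63 to 6.04 with TUDCA and 5.75 to 5.83 with vehicle, a difference of 0.04 (95% interval −0.14 to 0.21). The cytokines Tnf and Il1b, which macrophages release, differed by −0.43 and −0.51 (limma adjusted p = 0.124 and 0.332). All 6 TUDCA values lay below the vehicle mean of their range in both. Both belong to the list of 17 activation genes, of which 12 lay below 0 and 5 above. Among the other interleukins of that list Il1a and Il12a lay below 0 (−0.29 and −0.07). Il18, Il6, Il23a and Il12b lay above it (0.18, 0.13, 0.10 and 0.05), and none of these was called.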

How the data were processed

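The values as deposited are on the log2 scale, 1 for each probe set on each array. Per the submitters' processing notes these were made with the oligo package and RMA, which corrects background, applies quantile normalisation and summarises probes; versions and genome build are not given in the sources used here. RMA makes the arrays' distributions alike, so a shift of all transcripts would not be seen. Array medians lay between 5.90 and 5.95 and correlations between arrays from 0.984 to 0.993. No detection calls were used, and the number of arrays limits precision.

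Names of probe sets come from the platform annotation: 21557 named 1 gene, 787 several and 1647 none. For a gene with several probe sets the brightest stood for it. The limma package (3.58.1, R 4.3.3) fitted treatment and number range over 12 arrays by lmFit and a trended eBayes, two-sided, with Benjamini-Hochberg adjustment over all 23991 probe sets and a threshold of 0.05. The code was tested on simulated data. Correlations used 100000 resamples, or exact permutation over 6 arrays. The labels do not identify the mice beyond sample numbers of 57 to 70 (low range) and 153 to 166 (high range), so p-values measure the spread between these samples.

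The genes, lists and tests were chosen with earlier results of these data known. Of the 31 genes every one is accounted for, with array ranges for the 10 of smallest p and for Adgre1, Csf1r, Itgam, Itgax, Spi1, Flt3, C1qa, C1qb, C1qc, Fcer1g and Tyrobp. From each further list the genes past the threshold are named, or otherwise the 2 of smallest p. Genes named beside a result for comparison were chosen as relatives or leukocyte markers. Some genes, among them Gpbar1, Tnf and the interleukins, were named outside these rules. Alternatives were dropping the number range, a block for the replicate number, each range alone, removal of probe sets below the median, renewed quantile normalisation, centring, eBayes without trend or with robust variances, a threshold of 0.1, probe sets averaged within genes, array weights and omission of each array. Promoter windows and gene coordinates come from RefSeq tables of GRCm38.p6.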

Additional observations from a re-analysis of the deposited data

Results flagged for a closer look

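In Aif1, which encodes Iba1, TUDCA replicate 2 stood apart from the other TUDCA arrays with a log2 value of 6.11, against 6.44 for the nearest and 6.61 for the highest, a gap of 0.65 of the whole range of the group. It was the only gap past the critical value in 60 groups screened. By chance about 1 in 20 groups passes this value, so 1 among 60 is not more than chance would give.

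In Aif1 and Tyrobp both TUDCA arrays of the low number range lay below the vehicle mean of that range, and all 4 TUDCA arrays of the high range lay above theirs. The Aif1 difference (TUDCA minus vehicle) was 0.10 in the high range and −0.36 in the low range, 0.46 apart (interaction in limma, adjusted p = 0.603). The Tyrobp difference was 0.08 in the high range and −0.48 in the low range, 0.56 apart (interaction in limma, adjusted p = 0.598). Neither passed the threshold after adjustment.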

How the results depend on the processing

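Of the 30 genes 12 kept the sign of their difference in all alternatives, and 18 changed it in at least 1, in 56 refits, none of which passed the threshold (smallest adjusted p 0.573). The Ctss fall was lost without the number range (adjusted p = 0.1), in the high range alone (0.658), after renewed quantile normalisation (0.0921), without an eBayes trend (0.0736) and without TUDCA replicates 2 and 6 (0.25), and Lgals3 passed in the low range alone (0.0262), without dim probe sets (0.0401) and with array weights (0.0229). Ly75, Maf and Mertk kept their calls in all refits but the high range alone, where all 14 calls among the further genes were lost. The cause of these changes was not tested. Fits on fewer arrays have less to draw on, and the Ctss call was also lost in refits on all 12 arrays.

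Leaving out each array in turn gave 91 to 292 probe sets higher and 151 to 417 lower, 0 to 1 of the 30 genes higher and 0 to 1 lower, 1 to 2 higher and 1 to 9 lower at an unadjusted p of 0.05, 19 to 28 below 0, and 0 to 3 further myeloid genes higher and 4 to 16 lower. The high range alone gave 6 probe sets higher and 3 lower, none of the genes lower (0), 1 higher and 1 lower at an unadjusted p of 0.05, 15 below 0, and 0 and 0 further genes. The low range alone gave 1 gene called higher and 1 higher at an unadjusted p. TUDCA replicates 2 and 6 were left out after the data were seen, for their low values in these same genes. Without them the counts were 84 and 158 probe sets, 0 genes lower, 1 higher and 1 lower at an unadjusted p, 14 below 0, and 4 further genes lower. Array weights gave 436 probe sets higher, 1 gene higher and 3 further genes higher; removal of dim probe sets, which left 25 of the genes, 1 gene and 3 further genes higher; renewed quantile normalisation 0 genes lower and 3 further genes higher; no number range 0 genes lower and 2 further genes higher; no eBayes trend 0 genes lower; a threshold of 0.1 1 gene higher.

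With the replicate number as a block and the number range, 85 probe sets were higher and 190 lower, 0 genes were lower (Ctss adjusted p = 0.165), 1 higher at an unadjusted p, and 0 further genes higher and 4 lower; without the range the block gave 0 genes lower (Ctss adjusted p = 0.0591), 8 lower at an unadjusted p, and 2 further genes higher. The Nos2 fall was also lost with the block and the range (−1.39, adjusted p = 0.0853), as in the high range alone (−1.58, adjusted p = 0.33). The labels do not say that a number marks a shared origin. Deviations of same-numbered arrays correlated at −0.06 to 0.26, over 0.1 for 3 of 6 pairs, and 4 of 6 arrays correlated best with their own number, so a pairing was neither taken as given nor excluded. Under the block with the range the sign turned in Flt3 (0.035), Zbtb46 (−0.026) and Siglech (0.044), and under the block without it in Cd163 (0.076) and Siglech (0.039), as it did with no range and no block (0.076 and 0.039).

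Log2 differences with the other sign, without TUDCA replicates 2 and 6, were 0.0016 (Aif1), 0.034 (Fcgr1), 0.11 (Fcgr3), 0.084 (C1qa), 0.15 (C1qb), 0.17 (Mrc1), 0.16 (Cd163), 0.0067 (Clec7a), 0.074 (Ms4a7), 0.023 (Flt3), −0.28 (Cd209a), 0.018 (Spi1) and 0.019 (Csf2rb). In the high range alone they were 0.030 (Adgre1), 0.10 (Aif1), 0.080 (Fcgr1), 0.077 (Fcgr3), 0.082 (Tyrobp), 0.019 (C1qa), 0.17 (C1qb), 0.15 (Cd163), 0.00085 (Ms4a7), 0.048 (Flt3), −0.013 (Cd209a) and 0.018 (Csf2rb). Siglech was 0.049 in the low range, Mrc1 0.0059 and Cd209a −0.073 with array weights, and Flt3 0.00057 after quantile normalisation. Over the omissions of 1 array, Fcgr3 ran from −0.22 to 0.028, C1qa from −0.14 to 0.032, C1qb from −0.30 to 0.069, Mrc1 from −0.13 to 0.095, Cd163 from −0.19 to 0.11, Ms4a7 from −0.22 to 0.011, Batf3 from −0.011 to 0.12, Flt3 from −0.036 to 0.049, Zbtb46 from −0.0077 to 0.10, Siglech from −0.062 to 0.011 and Cd209a from −0.18 to 0.27.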
